A study of Mus musculus with 24 samples.

Results

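Contractile muscle is built from thick filaments of myosin heavy chain and thin filaments of actin, and the mammalian heart carries several genes for each. The 7 genes described here were chosen by name: the sarcomeric myosin heavy chain genes Myh6, Myh7 and Myh7b, the sarcomeric actin genes Acta1 and Actc1, and the smooth muscle actin genes Acta2 and Actg2. They are 7 of the 24972 genes in the table, and all 7 passed the filter on low values (TPM 1 or more in 3 or more libraries), which left 13058 genes for testing. TPM corrects for transcript length and scales each library to a sum of 1000000, so levels of different genes can be set side by side.

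The adult mouse ventricle runs mainly on Myh6, the fast alpha myosin heavy chain, and Actc1, the cardiac alpha-actin. Myh7, the slow beta myosin heavy chain, and Acta1, the skeletal alpha-actin, are the forms of the fetal ventricle, and both are known to be re-expressed in rodent hearts under load. Acta2 and Actg2 encode the actins of vascular and visceral smooth muscle, Acta2 is also the classical myofibroblast actin, and Myh7b is an ancient slow-type myosin gene whose intron carries a muscle microRNA.

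Stranded messenger RNA libraries came from free-wall left ventricle of male and female C57Bl6/J mice, 24 libraries in 8 groups of 3. In each sex the groups were MHS at day 28, control at day 28, MHS + RR (written MHS_RR) at day 56 and control at day 56. MHS is the metabolo-hypertensive stress of the series title (the tag reads AngII + HFD, angiotensin II with a high-fat diet), RR is left ventricle reverse remodeling, and controls carry no treatment. Ages are not in the labels, no transgene or deletion is named, and nothing in the labels says whether the 3 libraries of a group came from separate animals, so the p-values below cover the spread between libraries alone, which may be technical.

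The labels themselves are at odds. Titles and the group tag, used here, conflict with the time and treatment tags of 12 libraries: those titled MHS at day 28 are tagged as untreated 56-day libraries, and those titled control at day 56 are tagged as treated 28-day libraries. Under those tags the MHS and the day 56 control libraries would trade places, and none of the 7 genes would be called under MHS. The left ventricle label fits its markers, with the ventricular light chain Myl2 between 24560 and 38898 TPM, and the atrial light chain Myl7 at a median of 1.59 TPM. Female control day 28 replicate 2 stood apart with 625 TPM of Myl7 and 173 TPM of Sln, another atrial gene, and female MHS replicate 3 came next with 125 TPM of Myl7. In female MHS_RR replicate 3, Y-linked transcripts averaged 25.1% of the male mean. Each comparison was also run without these libraries. Depth is unknown, because TPM keeps no read counts.

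In the mouse the genes Myh6 and Myh7 lie side by side on chromosome 14, Acta1 on chromosome 8, Actc1 and Myh7b on chromosome 2, Acta2 on chromosome 19 and Actg2 on chromosome 6. The 250 bases before a RefSeq start (build GRCm38.p6) were at hand for 6 of the 7 genes, and those of the isoform pairs that the results turn on are printed here, each 5′ to 3′ on the strand of its gene. Capitals mark the M-CAT motif (letters CATTCC, searched on both strands), the site of TEAD factors, and the CArG box, the site of serum response factor. A CArG box was counted only as CC, then 6 letters that are each A or T, then GG, with no mismatch. M-CAT letters occur in 12.6% and a CArG box in 1.48% of 32536 mouse windows of this length.

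Acta1 (chr8:123894776-123895025, minus strand): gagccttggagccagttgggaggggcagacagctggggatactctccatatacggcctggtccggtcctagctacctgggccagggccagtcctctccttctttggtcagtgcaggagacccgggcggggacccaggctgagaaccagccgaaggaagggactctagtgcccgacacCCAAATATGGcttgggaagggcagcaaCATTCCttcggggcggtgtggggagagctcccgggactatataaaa
Actc1 (chr2:114052876-114053125, minus strand): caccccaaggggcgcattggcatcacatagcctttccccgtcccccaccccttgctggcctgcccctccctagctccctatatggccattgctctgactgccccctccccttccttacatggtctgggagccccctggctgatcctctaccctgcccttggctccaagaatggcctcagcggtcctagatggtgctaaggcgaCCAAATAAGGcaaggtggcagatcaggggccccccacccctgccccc
Myh7 (chr14:54994627-54994876, minus strand): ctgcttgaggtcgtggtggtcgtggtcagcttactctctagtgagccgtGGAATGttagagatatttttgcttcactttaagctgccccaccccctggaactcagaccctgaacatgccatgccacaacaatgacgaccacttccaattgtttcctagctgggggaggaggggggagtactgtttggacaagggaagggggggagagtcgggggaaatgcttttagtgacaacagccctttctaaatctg
Myh6 (chr14:54966608-54966857, minus strand): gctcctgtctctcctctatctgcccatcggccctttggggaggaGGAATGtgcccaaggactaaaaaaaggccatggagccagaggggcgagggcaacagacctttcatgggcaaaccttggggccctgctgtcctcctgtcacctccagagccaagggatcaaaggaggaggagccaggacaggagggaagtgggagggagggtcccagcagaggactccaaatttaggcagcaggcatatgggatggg

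Acta1 was the member with exact matches to both motifs, a CArG box from base -73 to -64 and an M-CAT on its own strand from -46 to -41, counted back from the start. Near matches to the CArG box were not counted, such as ccctatatgg in the windows of Acta2 and Actc1. Actc1 held a CArG box from -47 to -38 and no M-CAT. Both cardiac myosins held 1 M-CAT on the opposite strand, at -206 to -201 in Myh6 and at -201 to -196 in Myh7. Acta2 held 1 M-CAT on the opposite strand (-146 to -141), and in the windows of Myh7b and of a second Myh7 start neither motif was found. A MEF2 box (2.89% of windows) was found in none of the windows of the 6 genes. These matches are letters in a window and say nothing of binding.

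The myosin genes also carry microRNAs in their introns, miR-208a in Myh6, miR-208b in Myh7 and miR-499 in Myh7b. Their mature forms are shown because they tie the 3 myosin loci together, with the seed (bases 2 to 8) in capitals.

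miR-208a-3p: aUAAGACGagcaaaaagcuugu
miR-208b-3p: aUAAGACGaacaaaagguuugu
miR-499-5p: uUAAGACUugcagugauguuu

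miR-208a and miR-208b share the seed UAAGACG, while that of miR-499 is UAAGACU. Messenger RNA libraries are not made for microRNAs, and Mir208b and Mir499 were listed at 0 in all 24 libraries, and Mir208a in 23.

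Averaged over the libraries, Actc1 ranked as the gene with the number 3 mean TPM of the whole table and Myh6 as number 8. Acta1 ranked 113, Acta2 900, Myh7 1300, Myh7b 3547 and Actg2 11874. Across all libraries Actc1 stayed between 16547 and 22155 TPM and Myh6 between 9195 and 13660 TPM. At the other end, Myh7b lay between 14.3 and 46.8 TPM and Actg2 between 0.315 and 5.61 TPM. At the top of this order the genes did not overlap, since the lowest Actc1 value was above the highest Myh6 value, and the lowest Myh6 value above the highest Acta1 value. Acta2 and Myh7 overlapped widely across libraries.

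**Figure D1:**
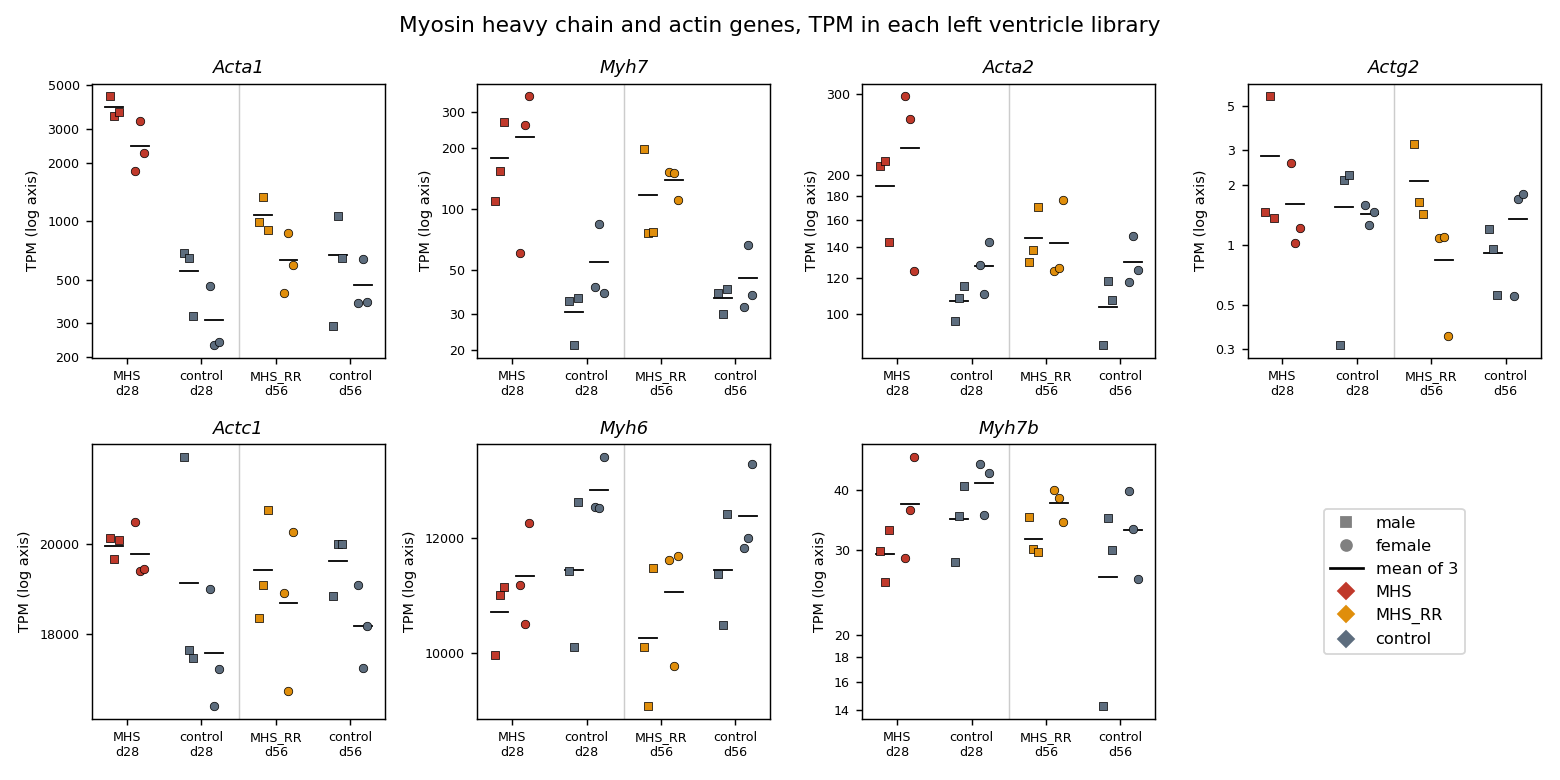
TPM of each gene on a log axis in the 24 libraries (each point 1 library, squares male, circles female, black lines the mean of 3), by condition and day. Acta1 in the 6 MHS libraries (1815 to 4406 TPM) lies above all other libraries, while Actc1 stays between 16547 and 22155 TPM throughout.

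The first comparison asked what MHS did to these genes by day 28. Acta1, Myh7 and Acta2 rose, and the dominant adult forms Actc1 and Myh6 stayed within a narrow band. As the mean of both sexes, 3 of the 7 genes were called at an adjusted p under 0.05 (all higher), beside 17.8% of all genes tested (11.6% higher and 6.24% lower). Within males 3 were called (background 10.2%) and within females 2 (background 5.76%).

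Acta1 moved most. It had 4406, 3489 and 3660 TPM in male MHS libraries, against 683, 647 and 326 TPM in male controls of day 28. In females it had 1815, 3262 and 2242 TPM under MHS, against 463, 229 and 239 TPM in controls. Every MHS library was above every control library of its sex, as for 19% of all genes tested in males and 11.4% in females, and the lowest MHS value was above the highest control value of either sex or day (1067 TPM). The log2 fold change was 2.87 ± 0.40 in males (SE, n = 3 per group, limma adjusted p = 0.000144), 3.01 ± 0.40 in females (adjusted p = 0.000158) and 2.94 ± 0.28 for both (adjusted p = 7.68e-07), a 7.66-fold higher level. Leaving out any 1 library kept the value for both sexes between 2.77 and 3.10.

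Myh7 had 109, 154 and 269 TPM in male MHS libraries, against 34.9, 21.1 and 36.0 TPM in male controls. These male groups did not overlap, as for 19% of all genes tested with MHS above controls. In females Myh7 had 60.3, 259 and 361 TPM under MHS, against 41.1, 83.9 and 38.3 TPM in controls. Here the groups overlapped, since MHS replicate 1 was below control replicate 2, the library with the high atrial transcripts. Myh7 rose by 2.43 ± 0.51 in males on the log2 scale (limma adjusted p = 0.00396), by 1.79 ± 0.51 in females (adjusted p = 0.0419) and by 2.11 ± 0.36 for both (adjusted p = 0.000316). The female call was lost without any of 7 libraries, 4 of them its own, with adjusted p reaching 0.133 and 0.162 without control replicates 1 and 3, and 0.192 and 0.21 without MHS replicates 2 and 3. It was also lost in a fit to these 2 groups alone (0.171) and with no filter on low values (0.0757). With both high-Myl7 libraries left out it was 1.63 (adjusted p = 0.132). The call for both sexes held without any 1 library (1.86 to 2.50).

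Acta2, the smooth muscle and myofibroblast actin, had 210, 215 and 143 TPM in male MHS libraries, against 96.6, 108 and 115 TPM in male controls. Female MHS libraries had 297, 265 and 124 TPM, against 128, 111 and 143 TPM in controls. The male groups did not overlap, as for 19% of all genes tested with MHS above controls, while female MHS replicate 3 fell among the controls. Acta2 rose by 0.80 ± 0.24 in males (limma adjusted p = 0.0357) and by 0.78 ± 0.17 for both sexes (adjusted p = 0.00258), and was not called in females (0.75 ± 0.24, adjusted p = 0.07). Female MHS replicate 3 decided the female result: without it the value was 1.14 (adjusted p = 0.00221). The male call was lost without any of 5 libraries, all of them from those 2 groups (adjusted p 0.0511 to 0.14), and under median-of-ratios scaling (0.061), quantile normalization (0.0542) and with no filter (0.0609), while the call for both sexes held without any 1 library (0.66 to 0.97).

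Actc1 and Myh6 did not pass the test in the main fit, which holds no replicate block. In male MHS libraries Actc1 had 19969 ± 273 TPM (SD, n = 3), against 19110 ± 2639 TPM in male controls. In female MHS libraries it had 19775 ± 647 TPM, against 17607 ± 1252 TPM in female controls. The female ranges did not overlap (19374 to 20522 against 16547 to 18988 TPM), as for 11.4% of all genes tested with MHS above controls. Within females Actc1 was at 0.17 ± 0.08 (limma adjusted p = 0.264). The log2 fold change for both sexes was 0.12 ± 0.06 (limma adjusted p = 0.162). Without male control replicate 1, which holds the highest Actc1 value of all, it was called (0.18, adjusted p = 0.0162).

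Myh6 had 10682 ± 616 TPM in male MHS libraries, against 11407 ± 1312 TPM in male controls. It had 11307 ± 917 TPM in female MHS libraries, against 12954 ± 612 TPM in female controls. These female ranges did not overlap either (10478 to 12292 against 12591 to 13660 TPM). The share of all genes with MHS below controls in this way was not taken, so nothing is read from it. The log2 fold change for both sexes was -0.14 ± 0.07 (limma adjusted p = 0.162), and with a correction for GC content and transcript length it was called lower (-0.21, adjusted p = 0.00432), while quantile normalization left it at 0.01 (adjusted p = 0.957). With a replicate block Myh6 was also called lower, as the closing section gives. Myh7b (-0.19 ± 0.17, adjusted p = 0.49) and Actg2 (0.28 ± 0.27, adjusted p = 0.542) were not called. Actg2 was below 1 TPM in 5 of the 24 libraries, and on the log2(TPM + 1) scale its changes are understated.

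**Figure D2:**
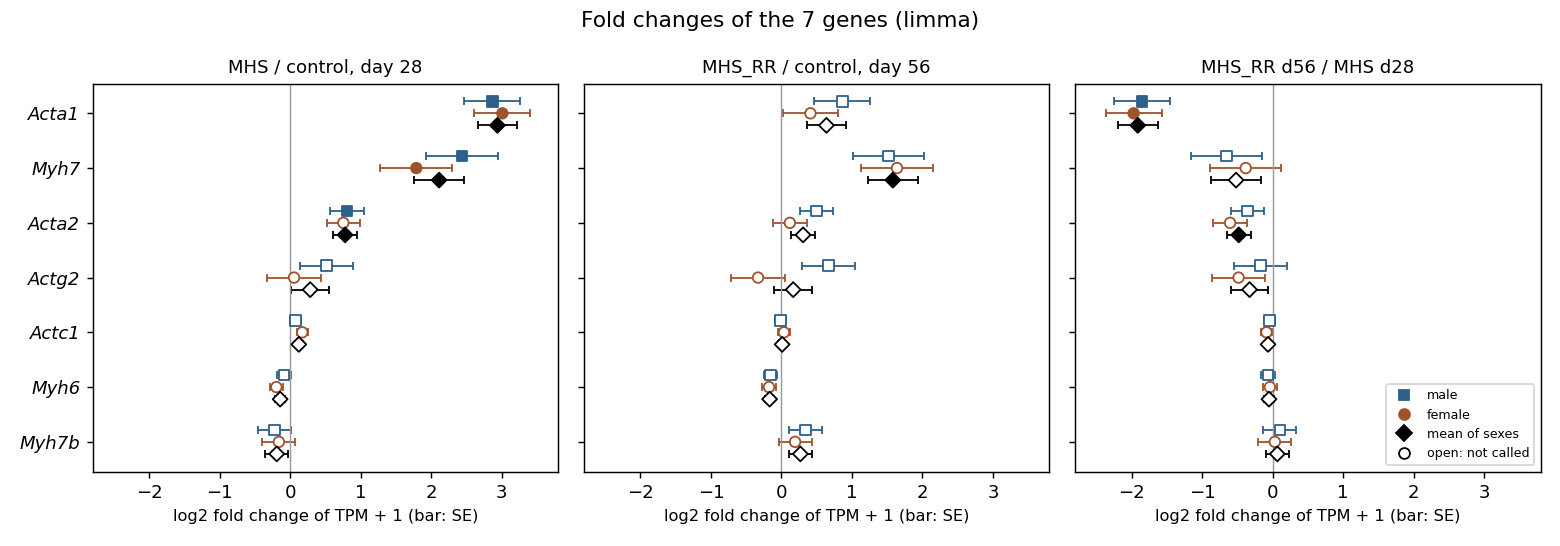
Log2 fold changes of TPM + 1 with standard errors (limma, filled symbols called at an adjusted p under 0.05) for the 7 genes in 3 comparisons, in males, in females and as the mean of the sexes. Acta1 is at 2.94 in MHS, 0.64 in MHS_RR and -1.91 between them for both sexes, while Myh7 is at 2.11, 1.58 and -0.52.

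Because ratios within a library do not depend on how that library was scaled, the isoform balance was also compared. Acta1 made up 16.1 ± 1.57% of the summed Acta1 and Actc1 TPM in male MHS libraries (SD, n = 3), against 2.78 ± 0.868% in male controls. In female MHS libraries the share was 11.0 ± 3.19%, against 1.70 ± 0.587% in female controls. Put the other way round, Actc1 was at 5.23 ± 0.576 times Acta1 in male MHS libraries and at 37.8 ± 13.9 times in male controls. The log2 ratio of Acta1 to Actc1 was higher by 2.82 under MHS over both sexes (exact two-sided permutation test within sex, p = 0.005, the smallest this design can give, adjusted p = 0.0375 over 60 tests).

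Within 1 sex, 3 libraries against 3 cannot reach a p below 0.10, and that was the value in both males and females. The sum of both sarcomeric actins was 23820 ± 707 TPM in male MHS libraries, against 19662 ± 2762 TPM in male controls. In females it was 22214 ± 494 TPM under MHS, against 17918 ± 1380 TPM in controls. Among the female means, Actc1 was at 19775 TPM under MHS against 17607 TPM, and Acta1 at 2439 against 310 TPM. Among the male means, Actc1 was at 19969 TPM under MHS against 19110 TPM, and Acta1 at 3852 against 552 TPM. The 3 male MHS sums were all above the 3 male control sums (lowest 23142 against highest 22838 TPM). The 3 female MHS sums were likewise above the female control sums (21671 against 19452 TPM). Such separation with MHS above controls held for 19% of all genes tested in males and 11.4% in females. The sums were not tested.

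Myh7 took a far smaller share of its pair. It made up 1.61 ± 0.669% of Myh6 plus Myh7 in male MHS libraries, against 0.265 ± 0.0507% in male controls. The female share was 1.93 ± 1.23% under MHS, against 0.422 ± 0.209% in controls. The log2 ratio of Myh7 to Myh6 was higher by 2.28 over both sexes (exact permutation p = 0.01, adjusted p = 0.06), which did not pass the correction. It did without female MHS replicate 1, the low library (2.67, exact permutation test, adjusted p = 0.03). In every library Myh6 remained the main myosin, with at least 34.1 times the TPM of Myh7. The sum of the 3 sarcomeric myosins was 10889 ± 684 TPM in male MHS libraries, against 11473 ± 1322 TPM in male controls, and 11571 ± 1005 TPM in female MHS libraries, against 13050 ± 599 TPM in female controls.

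The myosin figures carry a caveat of sequence. In the longest coding transcripts of the GENCODE M21 annotation, Myh6 and Myh7 shared 32.3% and 31.7% of their windows of 31 bases, and 15.5% and 15.3% of windows of 75 bases. Reads from those stretches have to be divided by the quantifier, so a small part of a very abundant Myh6 could be counted as Myh7, and the low Myh7 values are uncertain for that reason, which was not tested. Among the 4 muscle actins described here, Actc1 and Actg2 shared 10 windows of 31 bases and no other pair shared any. Actb and Actg1 were not compared in this way. Mhrt, the long noncoding RNA that overlaps the Myh7 locus on the opposite strand, fell under MHS (-0.42 ± 0.12, limma adjusted p = 0.0165). The kit keeps strand, but whether strand was used in counting is not stated in the sources used here, so reads of Mhrt and Myh7 may not be separated.

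**Figure D3:**
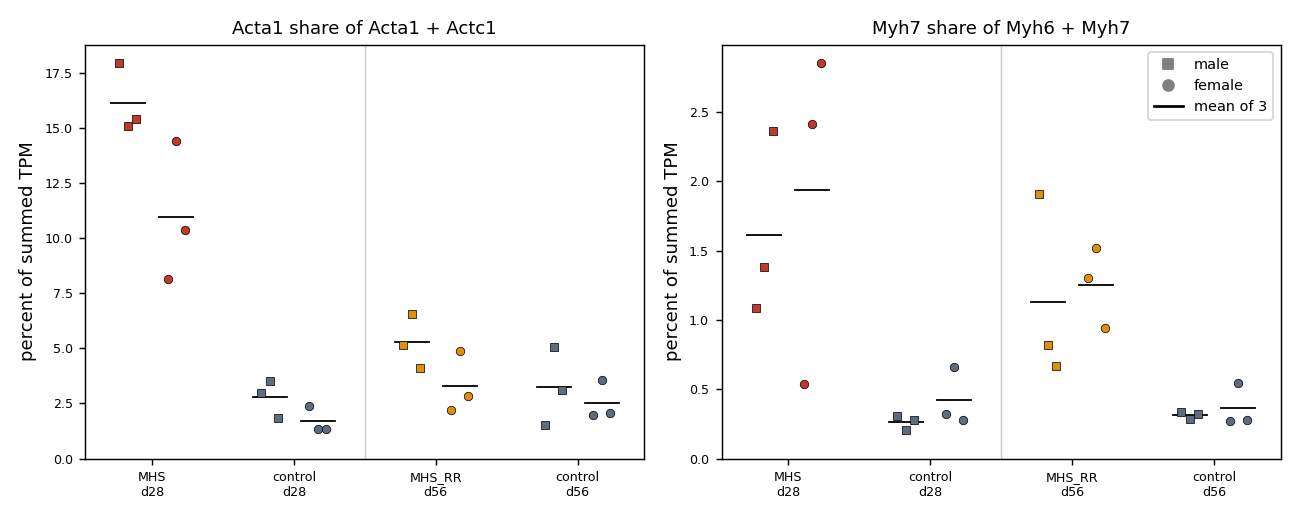
Share of Acta1 in the summed TPM of Acta1 and Actc1 (left) and of Myh7 in that of Myh6 and Myh7 (right), in percent, 1 point per library with the mean of 3 as a line. The Acta1 share of MHS_RR overlaps the controls (means 5.27% in males and 3.31% in females), while every Myh7 share of MHS_RR lies above the controls of its day and sex (means 1.13% and 1.25%).

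The second comparison set MHS_RR libraries of day 56 against controls of the same day, to ask which of these genes were still different after reverse remodeling. Myh7 alone was called, as the mean of both sexes (1 of 7 genes, beside 17.6% of all genes tested and 2.11% called higher). Within males and within females none of the 7 was called, where the background was 0.0919% and 5.11% (2345 and 2981 genes at an unadjusted p under 0.05). At that unadjusted level Myh7 passed in both sexes and Acta1 in males. Array weights called Myh7 (1.89, limma adjusted p = 0.00355), Actg2 (1.14, 0.00849) and Myh6 (-0.25, 0.0168) in males. The share of all genes called under array weights was not taken, so these calls have no background beside them and nothing is read from their number.

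Myh7 had 197, 75.8 and 77.0 TPM in male MHS_RR libraries, against 38.4, 30.1 and 40.0 TPM in male controls of day 56. In females it had 153, 151 and 111 TPM in MHS_RR, against 32.6, 66.0 and 37.4 TPM in controls. In both sexes all 3 MHS_RR libraries were above all 3 controls, as for 4.76% of all genes tested in males and 4.75% in females. Myh7 was higher by 1.58 ± 0.36 on the log2 scale over both sexes (limma adjusted p = 0.00666), a 2.99-fold higher level. In males the value was 1.52 ± 0.51 (adjusted p = 0.138) and in females 1.64 ± 0.51 (adjusted p = 0.0649). The call for both sexes held without any 1 library (1.35 to 1.73), and without female MHS_RR replicate 3, with its Y-linked transcripts, it was 1.66 (adjusted p = 0.0111). Male MHS_RR replicate 1, the library with 197 TPM, also had the third highest Myl7 of the 24 libraries (57.3 TPM, against 1.58 and 0.403 TPM in the others of its group) and 12.7 TPM of Sln. Without it Myh7 was at 1.35 over both sexes (adjusted p = 0.0174) and at 1.07 in males (adjusted p = 0.331), and the part of atrial tissue in its Myh7 value was not tested.

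Acta1 had 993, 1338 and 896 TPM in male MHS_RR libraries, against 287, 1067 and 642 TPM in male controls. In females it had 426, 867 and 593 TPM in MHS_RR, against 381, 642 and 381 TPM in controls. Both sexes overlapped their controls. The log2 fold change over both sexes was 0.64 ± 0.28 (limma adjusted p = 0.12). It was called without male control replicate 2, the highest control of all (0.86, adjusted p = 0.0319), so a remaining difference in Acta1 depended on that library.

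Acta2 had 130, 138 and 171 TPM in male MHS_RR libraries, against 85.7, 118 and 107 TPM in male controls, and 124, 126 and 177 TPM in female MHS_RR libraries, against 117, 147 and 124 TPM in female controls. It was not called (0.31 ± 0.17, limma adjusted p = 0.214). Nor were Myh6 (-0.17 ± 0.07, adjusted p = 0.0904), Actc1 (0.01 ± 0.06, adjusted p = 0.929), Myh7b (0.27 ± 0.17, adjusted p = 0.274) or Actg2 (0.17 ± 0.27, adjusted p = 0.708). Myh6 was called lower over both sexes with array weights (-0.20, adjusted p = 0.01) and without male MHS_RR replicate 3 (-0.21, adjusted p = 0.0363), and was at 0.07 (adjusted p = 0.435) with GC and length correction. A replicate block called Myh6 lower too, as the closing section gives.

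Of both myosins and both actins the shares were compared next. Myh7 made up 1.13 ± 0.677% of Myh6 plus Myh7 in male MHS_RR libraries (SD, n = 3), against 0.314 ± 0.0258% in male controls, and 1.25 ± 0.292% in female MHS_RR libraries, against 0.366 ± 0.156% in female controls. Without male MHS_RR replicate 1 the difference of the male shares was 0.428 points in place of 0.817. The log2 ratio of Myh7 to Myh6 was higher by 1.77 over both sexes (exact permutation p = 0.005, adjusted p = 0.0375). Acta1 made up 5.27 ± 1.22% of both sarcomeric actins in male MHS_RR libraries, against 3.23 ± 1.78% in male controls, and 3.31 ± 1.41% in female MHS_RR libraries, against 2.53 ± 0.909% in female controls. The log2 ratio of Acta1 to Actc1 differed by 0.63 (exact permutation p = 0.095, adjusted p = 0.231).

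The third comparison set MHS_RR at day 56 directly against MHS at day 28. It shares its libraries with both comparisons above, and day and condition change together in it. Acta1 fell in males (-1.85 ± 0.40, limma adjusted p = 0.00346) and in females (-1.97 ± 0.40, adjusted p = 0.00334), 1 of 7 genes called in each, where the backgrounds were 19.6% and 11.5%. Over both sexes Acta1 fell by 1.91 ± 0.28 (adjusted p = 4.67e-05), and all 6 MHS_RR values (426 to 1338 TPM) were below all 6 MHS values (1815 to 4406 TPM), as for 11.9% of all genes tested.

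Acta2 also fell over both sexes (-0.48 ± 0.17, limma adjusted p = 0.0337), which made 2 of 7 genes called, beside 32.8% of all genes tested and 26.7% called lower. That call was weak: it was lost without any of 8 libraries, under median-of-ratios scaling (adjusted p = 0.113), under quantile normalization (0.0813) and with GC and length correction (0.072).

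Myh7 did not pass (-0.52 ± 0.36, limma adjusted p = 0.289), with 75.8 to 197 TPM in the 6 MHS_RR libraries, against 60.3 to 361 TPM in the 6 MHS libraries. The low female MHS replicate 1 decided this too, since without it Myh7 was called lower (-0.91, adjusted p = 0.0213). Myh6 was not called (-0.05 ± 0.07, adjusted p = 0.605), and its direction turned to 0.22 (adjusted p = 0.00308) after correction for GC content and length. Those 2 properties accounted for 28.1% to 31.9% of the deviations of 3 male libraries (control day 28 replicate 1, control day 56 replicate 1 and MHS_RR replicate 2) and for at most 16.8% in the others. Their part in the Myh6 values was not tested beyond that correction.

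The change of the effect itself was tested as the MHS_RR effect minus the MHS effect, each over its own controls and as the mean of the sexes. Acta1 was called (-2.30 ± 0.40, limma adjusted p = 0.000611), the single call among the 7 genes beside 19.4% of all genes tested. The change for its ratio to Actc1 was -2.19 (exact permutation p = 0.00115, adjusted p = 0.0345). For each change of effect in a ratio, the permutation exchanged MHS_RR with MHS labels and day 56 with day 28 control labels within sex. It is exact only where neither pair differs, so it is no separate test of equal effects. For Myh7 the change was -0.53 ± 0.51 (limma adjusted p = 0.508) and for the ratio of Myh7 to Myh6 it was -0.51 (exact permutation p = 0.348, adjusted p = 0.485). Acta2 (-0.47 ± 0.24, limma adjusted p = 0.176), Myh7b (0.46 ± 0.23, adjusted p = 0.179), Actc1, Myh6 and Actg2 were not called.

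That Acta1 was called here and Myh7 was not does not show that they differed. The ratio of Acta1 to Myh7 within each library, chosen after the values were seen, addressed this. Acta1 was at 25.5 ± 13.6 times Myh7 in male MHS libraries (SD, n = 3) and at 19.8 ± 10.8 times in male controls of day 28. In male MHS_RR libraries it was at 11.5 ± 6.31 times, and in male controls of day 56 at 19.7 ± 14.4 times. Female values were 16.3 ± 12.4 under MHS and 6.74 ± 4.29 in controls of day 28, then 4.63 ± 1.60 in MHS_RR and 10.5 ± 1.03 in controls of day 56. The effect on the log2 ratio changed by -1.77 (exact permutation p = 0.0245, labels exchanged as above). This change did not pass the correction over 90 tests (adjusted p = 0.183), and leaving out 1 library moved the raw p between 0.0067 and 0.0657.

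**Figure D4:**
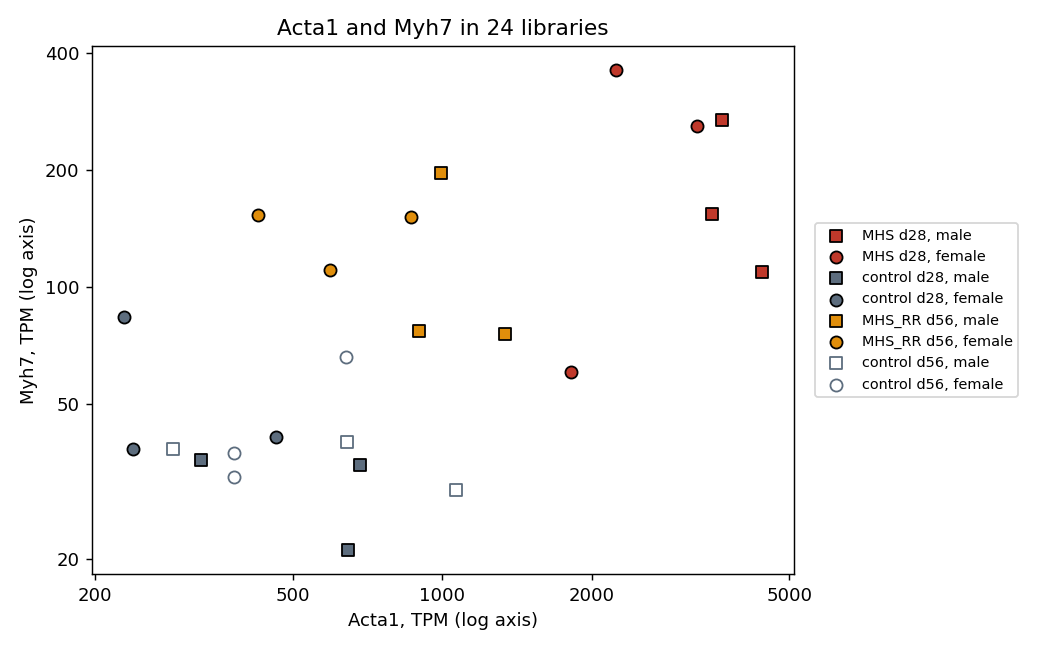
Myh7 against Acta1 in the 24 libraries, both in TPM on log axes, by condition, day and sex. The 6 MHS_RR libraries lie left of the 6 MHS libraries in Acta1, at Myh7 values (75.8 to 197 TPM) above 11 of the 12 controls.

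Across the 24 libraries the log2 values of Acta1 and Myh7 correlated with r = 0.62, as a description, since the libraries share conditions. Acta1 correlated with Acta2 at 0.65, with Actc1 at 0.49 and with Myh6 at -0.57. Myh7 and Myh6 correlated at -0.27. The genes most like each member were taken as the 5 with the highest r among those with a mean TPM of at least 5. For Acta1 they included Cox19, Rexo2, 2010111I01Rik and Csrp3 (r 0.93 to 0.91), the last the muscle LIM protein of the Z-disc. For Myh7 they were Thbs4, Cd63, Ephx1, Anxa4 and Fibin (0.89 to 0.86), the first a matricellular protein. For Actg2 they were Tagln, Myh11, Myl9, Mustn1 and Mylk (0.86 to 0.72), of which Tagln, Myh11, Myl9 and Mylk are smooth muscle genes. Acta2 was most like Gramd1a, Fhl1, Eva1b, Csrp3 and Cfl2 (0.76 to 0.72), and none of these is a smooth muscle marker of the list used here. Myh6 was most like Gab1, Phlpp1, Xpo7, Ptprm and Mylk4 (0.90 to 0.87), and Actc1 had no close match (Zdhhc7 highest, 0.73).

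Csrp3, Cd63 and Thbs4 were picked by likeness over these same libraries, in which Acta1 and Myh7 rose under MHS. Their calls largely follow from that choice and are no separate support. Csrp3 and Cd63 were called higher in both comparisons, beside 11.6% of all genes tested under MHS and 2.11% in MHS_RR. Csrp3 was at 0.36 ± 0.04 under MHS (limma adjusted p = 9.41e-06) and 0.14 ± 0.04 in MHS_RR (adjusted p = 0.0353). Cd63, a vesicle membrane protein, was at 0.24 ± 0.06 in each (adjusted p = 0.0108 and 0.014). Thbs4, the gene most like Myh7, rose by 3.13 ± 0.42 under MHS and was not called in MHS_RR (1.05 ± 0.42, adjusted p = 0.0854). Ankrd1, a stretch-responsive gene of the sarcomere, rose under MHS (1.48 ± 0.18, adjusted p = 1.07e-05) and had 0.19 ± 0.18 in MHS_RR (adjusted p = 0.493). The change of effect, the effect in MHS_RR minus that under MHS, was -1.29 ± 0.26 for Ankrd1 (adjusted p = 0.00200), -2.08 ± 0.59 for Thbs4 (adjusted p = 0.0182) and -0.23 ± 0.06 for Csrp3 (adjusted p = 0.0167). For Cd63 it was not called (adjusted p = 0.997, SE 0.09).

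No sex difference was called. The female minus male difference of the MHS effect was 0.14 ± 0.56 for Acta1, -0.65 ± 0.72 for Myh7 and -0.05 ± 0.34 for Acta2, and 0 of 7 genes were called (limma, background 0.00766%, 564 genes at an unadjusted p under 0.05). For the MHS_RR effect 0 of 7 were called (background 0%, with 459 genes at an unadjusted p under 0.05). The standard errors leave room for sizeable differences. Within 2 standard errors Acta1, Myh7 and Actg2 could each differ by over 1 on the log2 scale.

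Between controls, 0 of 7 genes were called in female against male libraries (background 1.23%, 2406 genes at an unadjusted p under 0.05, Acta1 and Myh6 among them). Acta1 was at -0.60 ± 0.28 (limma adjusted p = 0.264), Myh6 at 0.16 ± 0.07 (adjusted p = 0.233) and Myh7 at 0.51 ± 0.36 (adjusted p = 0.43). Day 56 controls against day 28 controls gave 0 of 7 in either sex (background 0% in both, with 391 and 500 genes at an unadjusted p under 0.05 in males and females). Acta1 was at 0.15 ± 0.40 in males and 0.62 ± 0.40 in females, and Myh7b at -0.46 ± 0.23 and -0.32 ± 0.23.

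Other genes of the same families and their regulators were read from lists, set beside a median log2 fold change of 0.04 over all genes tested under MHS, of which 11.6% were called higher and 6.24% lower. In MHS_RR 2.11% were called higher and 15.5% lower. Of the other myosin heavy chains 4 of 11 were abundant enough to test, and nonmuscle Myh10 was called higher (0.41 ± 0.11, limma adjusted p = 0.00984), while Myh9, Myh14 and smooth muscle Myh11 were not. The skeletal and developmental chains Myh1, Myh2, Myh3, Myh4 and Myh8 never exceeded 0.0612 TPM. Of the 4 cytoplasmic actin and actin-like genes tested none was called (median -0.02), with Actb at 369 ± 42.3 TPM in female MHS libraries and 444 ± 7.11 TPM in female controls. In MHS_RR Actb fell by 0.39 ± 0.08 (adjusted p = 0.00275), as did Myh9 (-0.50), Myh14 (-0.49) and Myh10 (-0.32), where 15.5% of all genes were called lower.

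Of 17 genes that fold actin and myosin, 2 were higher and 2 lower under MHS (median 0.08, beside 11.6% and 6.24% of all genes), the chaperone Hsp90aa1 by 0.74 ± 0.22 (limma adjusted p = 0.0215), the chaperonin subunits Cct3 and Cct7 by 0.15 and -0.13, and prefoldin Pfdn5 by -0.15. The myosin chaperone Unc45b was at -0.05 ± 0.04 (adjusted p = 0.512).

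Thyroid hormone is the classical activator of Myh6 and repressor of Myh7 in rodent ventricle. Of 18 genes of that axis tested, 2 were higher and 3 lower under MHS (median -0.03, beside 11.6% and 6.24% of all genes). Dio2, the activating deiodinase, rose by 1.20 ± 0.19 (limma adjusted p = 0.000145) and the corepressor Hr by 0.35 ± 0.07 (adjusted p = 0.00166). The receptor Thra fell by 0.30 ± 0.07 (adjusted p = 0.00538), its partner Rxrg by 0.22 ± 0.06 (adjusted p = 0.00898) and the calcium pump Atp2a2 by 0.24 ± 0.06 (adjusted p = 0.00433). In MHS_RR 8 of the 18 were lower and none higher, beside 15.5% and 2.11% of all genes, with Thra at -0.26, Atp2a2 at -0.23 and Hr at -0.66 among them, and Dio2 was not called (0.22 ± 0.19, adjusted p = 0.442).

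Serum response factor and its MRTF coactivators drive actin genes through CArG boxes. Of 12 genes of that set tested, 4 rose and 1 fell under MHS (median 0.16, beside 11.6% and 6.24% of all genes). Abra, the actin-binding activator of MRTF, rose by 1.07 ± 0.14 (limma adjusted p = 2.21e-05), Mkl2 by 0.39 ± 0.10 (adjusted p = 0.00873), Fhl2 by 0.34 ± 0.05 (adjusted p = 2.56e-05) and Mkl1 by 0.25 ± 0.08 (adjusted p = 0.0336). Hopx, which antagonizes serum response factor, fell by 0.56 ± 0.07 (adjusted p = 1.79e-05), and Srf was at 0.16 ± 0.08 (adjusted p = 0.189). In MHS_RR 1 was higher (Fhl2, 0.18) and 4 lower, beside 2.11% and 15.5% of all genes, Abra being at 0.03 ± 0.14 (adjusted p = 0.903).

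Of 21 TEAD and cardiac transcription factors tested 2 rose under MHS, the coactivator Wwtr1 (0.27 ± 0.08, limma adjusted p = 0.0202) and Nfatc4 (0.29 ± 0.10, adjusted p = 0.0433), and none fell (median 0.07, beside 11.6% and 6.24% of all genes). Tead1 was at 0.32 ± 0.13 (adjusted p = 0.115). Of 15 further regulators of the myosin switch, 2 were lower under MHS (median 0.05, beside 6.24% of all genes), Mhrt and Parp1 (-0.18 ± 0.06, adjusted p = 0.0427). Sox6, a repressor of slow myosin in skeletal muscle, was at -0.01 ± 0.10 (adjusted p = 0.973).

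Markers of other cell types stand beside these results, and in a bulk sample fewer cells of a type and less RNA per cell cannot be told apart. Of 14 cardiomyocyte genes 3 rose and 6 fell under MHS, beside 11.6% and 6.24% of all genes, and their summed level was 113328 to 116304 TPM in male MHS libraries, against 131875 to 136328 TPM in male controls. In females it was 113503 to 121320 TPM under MHS, against 129518 to 137575 TPM in controls. Myl2 (-0.40 ± 0.04, limma adjusted p = 1.19e-06) and Tnni3 (-0.40 ± 0.05, adjusted p = 5.84e-06) fell, while Actn2 rose by 0.35 ± 0.05 (adjusted p = 4.16e-05).

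Acta1 is also the actin of skeletal muscle, whose markers were read for that reason. The defining fast chains Myh1, Myh2 and Myh4 were at 0 in 13, 13 and 22 of 24 libraries, with at most 0.0612 TPM in any, and Mylpf lay between 0.888 and 3.81 TPM. Of the 7 of 16 skeletal markers that could be tested 2 rose (Mybpc2 1.10 ± 0.21 and Casq1 0.94 ± 0.30) and 1 fell (Tnnt1 -0.81 ± 0.10) under MHS, beside 11.6% and 6.24% of all genes. Their sum over all 16 was 51.4 to 89.9 TPM in male MHS libraries, against 52.1 to 56.8 TPM in male controls, and 57.5 to 113 TPM in female MHS libraries, against 59.2 to 79.2 TPM in female controls. Myl1, a light chain of fast skeletal muscle, was not among the 16 and is given with the atrial markers.

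For Myh7, atrial tissue was read from 9 markers, of which 7 could be tested and 2 rose under MHS (Nppa 1.70 ± 0.35 and Myl1 1.04 ± 0.13), beside 11.6% of all genes. Their sum was 580 to 1543 TPM in male MHS libraries, against 368 to 492 TPM in male controls. In females it was 950 to 3573 TPM under MHS, against 390 to 1906 TPM in controls. The sums include Nppa, which ventricles also make under load. They also include Myl1 (62.6 to 190 TPM), known as a light chain of fast skeletal muscle and not specific to atria. The atrial light chain Myl4 had a median of 4.25 TPM and reached 442 TPM. Sln was at 0 in 11 libraries and reached 173 TPM. Bmp10, a gene of the right atrium in adults, never exceeded 0.358 TPM. Myl7 (-0.34 ± 1.22, limma adjusted p = 0.894) was not called. The highest Myh7 of any female control of day 28 and of any MHS library lay in the 2 libraries with the highest Myl7, and the part of atrial tissue in those 2 values was not tested.

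For Acta2, mural and myofibroblast markers were read. Of 16 mural and smooth muscle markers 4 rose (Tpm2 1.01, Des 0.45 and Cspg4 0.46 among them) and 2 fell (Kcnj8 -0.29, Abcc9 -0.41) under MHS, with a median of 0.22, beside 11.6% and 6.24% of all genes. Their sum was 2696 to 3088 TPM in male MHS libraries, against 2123 to 2425 TPM in male controls, and 2599 to 3152 TPM in female MHS libraries, against 2274 to 2398 TPM in female controls. Most of it is Des, which cardiomyocytes also make. The smooth muscle myosin Myh11 (0.45 ± 0.23, limma adjusted p = 0.2) and Tagln (0.70 ± 0.30, adjusted p = 0.127) were not called. All 12 myofibroblast genes rose (median 1.54, beside 11.6% of all genes called higher), with sums of 447 to 658 TPM in male MHS libraries, against 187 to 199 TPM in male controls, and 356 to 1480 TPM in female MHS libraries, against 221 to 260 TPM in female controls. The part of these cells in the Acta2 values was not tested. The ratio of Acta2 to Myh11, also chosen after the values were seen, was higher by 0.30 under MHS on the log2 scale (exact permutation p = 0.38, adjusted p = 0.6 over 90 tests).

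In MHS_RR the myofibroblast sum was 132 to 231 TPM in male libraries, against 206 to 211 TPM in male controls of day 56, and 126 to 164 TPM in female libraries, against 235 to 316 TPM in female controls, with Col1a1 (-0.86) and Col3a1 (-1.08) called lower and the other 10 not called, beside 15.5% of all genes called lower. The summed cardiomyocyte genes were 130452 to 139244 TPM in male MHS_RR libraries, against 129013 to 138937 TPM in male controls, and 128275 to 138543 TPM in female MHS_RR libraries, against 129973 to 132629 TPM in female controls.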

How the data were processed

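The authors deposited 1 table of TPM values, 24972 gene symbols by 24 libraries. The submitters' notes name STAR, Salmon and mm9 without versions, and the strand setting is not given in the sources used here. TPM holds no read counts, so depth is unknown. Columns were matched to libraries by name, and groups follow titles and the group tag.

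Values were taken as log2(TPM + 1) for 13058 genes and fitted with limma 3.58.1 in R 4.3.3 (8 group means, 16 residual degrees of freedom, eBayes with trend). Benjamini-Hochberg adjustment ran over all genes within each of 15 comparisons, with calls at an adjusted p under 0.05. Ratios within a library were tested by exact two-sided permutation, within sex where sexes were joined, and adjusted over 60 tests, or over 90 with the 2 ratios added later. The fit was tested on simulated data.

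The genes and lists were chosen with earlier results of these data known. Named beyond the 7 genes are at most 4 members of each list with the lowest p under MHS, 8 further genes given by name, and the 5 genes most like a member, of which 1 is not reported here. Mkl1, Srf, Rxrg, Unc45b, Sox6, Abcc9, Col1a1, Col3a1 and the defining markers of other tissues lie outside that rule and were named after their values were seen. Myl4 and Bmp10 were also named after their values were seen. Sequences and chromosomes come from RefSeq (GRCm38.p6), a build other than that of the files, and 7 of 7 symbols matched. Shared windows come from GENCODE M21 transcripts.

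Alternatives were pseudocounts of 0.1 and 5, no filter, median-of-ratios scaling, quantile normalization, array weights, GC and length correction, a replicate block, a fit to the groups compared, groups by the tags, and leaving out each library. Leaving out both libraries with the highest Myl7 together was chosen after seeing the data. Lists also covered fibroblast (5 of 10 higher and 1 lower under MHS), endothelial (2 of 10 higher), macrophage (1 of 10 higher), adipocyte (0 of 4) and erythroid (0 of 6) markers.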

Additional observations from a re-analysis of the deposited data

How the results depend on the processing

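Over both sexes, the calls for Acta1, Myh7 and Acta2 under MHS, Myh7 in MHS_RR, and Acta1 between MHS_RR and MHS and in the change of effect kept their direction and their side of the threshold in all alternatives except the groups by tags. There the Acta1 change of effect alone was still called. It could not do otherwise, since exchanging the MHS and day 56 control libraries leaves that comparison the same. Median-of-ratios scaling moved the median of all genes by 0.10 between MHS_RR and MHS and quantile normalization by 0.12. With 3 libraries a group and unknown depth, changes of low genes such as Actg2 could not be resolved.

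Counts of the 7 genes called that moved by over 1.5 times were as follows, and the cause was not tested. The share of all genes called was taken for the main fit alone, so no background stands beside these counts. Smaller moves were from 3 to 4 for MHS over both sexes (replicate block, GC and length correction, and 1 library left out) and from 3 to between 2 and 4 for MHS in males. MHS in females gave 1 in place of 2 with no filter and in a fit to the groups compared, and MHS_RR against MHS over both sexes 1 in place of 2 in those fits and under median-of-ratios scaling. MHS_RR in females gave 1 in place of 0 in the fit to the groups compared, with GC and length correction (with or without the replicate block) and without both high-Myl7 libraries. Array weights gave 3 in MHS_RR males and 2 over both sexes, and quantile normalization called Myh6 (1 gene) between control sexes. GC and length correction, also with the replicate block, gave 2 for MHS_RR against MHS in males and 3 for the change of effect, and with the block 2 in females. Without both high-Myl7 libraries MHS_RR against MHS gave 2 in females and the change of effect 2. Myh6 reversed to 0.23 in males, 0.22 over both sexes and 0.28 for the change of effect with GC and length correction, and the same with the replicate block, which added 0.21 in females.

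Without 1 library, counts ran from 1 to 2 for MHS in females, MHS_RR over both sexes, MHS_RR against MHS in females and over both sexes, and the change of effect, and from 0 to 1 for MHS_RR in females. Without 1 library the log2 ratio of Myh7 to Myh6 under MHS lay between 2.06 and 2.67 and the Myh7 share difference between 1.20 and 1.78 points, that in MHS_RR between 0.657 and 0.968 points, and the ratio of Acta1 to Actc1 between MHS_RR and MHS between -2.02 and -1.72.

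Same-numbered libraries correlated at -0.40 to 0.57 (median 0.04, 30 of 84 pairs over 0.1). Those with other numbers had a median of -0.01 (36 of 168 pairs over 0.1). The labels do not say what a number marks, so the main fit used no block, and whether numbers mark pairs was not settled. Replicate 3 had the highest Myh6 in all 8 groups. With a replicate block 2 genes were called in MHS_RR over both sexes, Myh6 (-0.17, limma adjusted p = 0.00714) joining Myh7, and Myh6 was also called under MHS in females (-0.20, adjusted p = 0.0365) and over both sexes (-0.14, adjusted p = 0.0135). Sign flips of same-numbered differences left the ratios at 2.82, -1.85 and 1.77 and the shares at 11.3, -9.26 and 0.852, with permutation adjusted p = 0.156 for each. Each stood at the smallest raw p that so few flips can give. None could therefore have passed the correction, and no conclusion is drawn from these flips.

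The tags only exchange the MHS and day 56 control libraries, so the comparisons below are those above under other names and no separate check. With groups by the tags, 0 genes were called under MHS in males, females and both, 1 in MHS_RR males, 1 in females and 2 over both, 0, 0 and 1 for MHS_RR against MHS, and 3 and 2 between control days in males and females. Acta1 was then at -1.85, -1.97 and -1.91 in MHS_RR males, females and both, and at 0.86, 0.41 and 0.64 for MHS_RR against MHS. Acta2 was at -0.049 and -0.0092 under MHS in males and both, -0.48 in MHS_RR, 0.31 for MHS_RR against MHS and 0.80 between male control days. Myh7 was at -0.23 under MHS in females, -0.52 in MHS_RR, 1.58 for MHS_RR against MHS and 1.79 between female control days.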
